A study of Danio rerio with 12 samples.

Results

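Heat shock proteins and their co-chaperones were followed in adult zebrafish testis with and without follicle-stimulating hormone (Fsh). The genes were taken by symbol: the Hsp70, Hsp110, Hsp90, chaperonin and small heat shock protein genes (hsp with a digit or with the letters a, b, d, e or h), the J protein genes (dnaja, dnajb and dnajc) and the heat shock factors hsf1, hsf2 and hsf4 with names built on them. Of 33737 gene IDs counted, 83 carried such a symbol, and 73 of these had enough reads to be tested. There were 6 libraries of testis tissue from adult wild-type fish kept for 48 h with trilostane and Fsh (Fsh libraries 1 to 6). They were set against 6 libraries of the same kind of tissue kept for 48 h with trilostane alone (control libraries 1 to 6). Trilostane inhibits steroid hormone synthesis and was present in both groups, so every value here is from tissue with that synthesis inhibited. The submitters describe the libraries of each group as biological replicates; the labels used here do not state the dose and source of Fsh or whether tissue of several fish was pooled.

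Chaperones bind unfolded stretches of other proteins and let go of them in cycles driven by ATP. Hsp70 proteins do so with J proteins, which bring clients and start ATP hydrolysis, and with Hsp110 proteins, which exchange the nucleotide; Hsp90 proteins take over part of the clients, among them steroid hormone receptors. Small heat shock proteins hold unfolded clients without ATP. Heat shock factors switch on the stress-inducible members, and spermatogenesis in mammals uses germ cell forms of several of these families.

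Library totals ran from 6735718 to 11367899 counts in the Fsh group and from 4695095 to 11497588 counts in the control group (two-sided exact permutation p = 0.433, or 0.597 after Benjamini-Hochberg adjustment over 5 library measures). Levels are given in CPM, counts per 1000000 counts of a library after TMM scaling between libraries, and not per gene length, so they are compared between libraries and not between genes. Marker lists for testis were well represented: summed meiotic markers lay between 1849 and 2906 CPM with Fsh and between 2126 and 3169 CPM in controls, while summed oocyte markers did not exceed 18.9 CPM with Fsh or 13.8 CPM in controls. Fsh library 5 stood apart. It had the lowest meiotic sum (1849 CPM, against 2666 to 2906 CPM in the other Fsh libraries) and the highest sum of endothelial markers (278 CPM, against 83.2 to 137 CPM). It was also the lowest or the highest of the 6 Fsh libraries for 41 of the 73 members (56.2%, beside 53.3% of all genes tested). Because tissue was sequenced in bulk, fewer cells of a type and less RNA per cell cannot be told apart.

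Of the tested members, 1 was called as changed with Fsh. HSPB8, a small heat shock protein that works with the Hsp70 co-chaperone BAG3 in the autophagy of damaged proteins, rose 1.46-fold, and none of the 73 tested members was called lower (edgeR quasi-likelihood test, adjusted p under 0.05). That is 1 call among 73 members (1.37%), near the 1.63% of all 19317 genes tested that were called (0.865% higher and 0.766% lower with Fsh). Likewise, limma-voom called HSPB8 alone of the members, where it called 1.87% of all genes. The other 72 members did not pass, but a test that misses the threshold does not show that a gene kept its level: the 95% interval of the fold change lay within 1.5-fold in either direction for 43 of the 73 members and within 2-fold for 64. In the estimates themselves, 43 members were above 0 and 30 below, and the median log2 fold change was 0.09, beside 0.00 over all genes tested. Members past 1.5-fold numbered 5 (6.85%), beside 12.1% of all genes tested. At an unadjusted p under 0.05 stood 16 members (21.9%), 10 of them higher with Fsh, beside 17.4% of all genes tested. DESeq2 called 4 members (HSPB8, HSPA4L and DNAJC9 higher, dnajb2 lower) where it called 5.49% of all genes. Without Fsh library 5, edgeR called 6 members (HSPB8, HSPA4L, DNAJC9 and dnaja higher, DNAJC5 (ENSDARG00000004836) and dnajc3b lower), where it called 3.88% of all genes. Without control library 6 it called HSPB8, HSPA4L and dnajb2, where it called 3.58% of all genes.

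**Figure D1:**
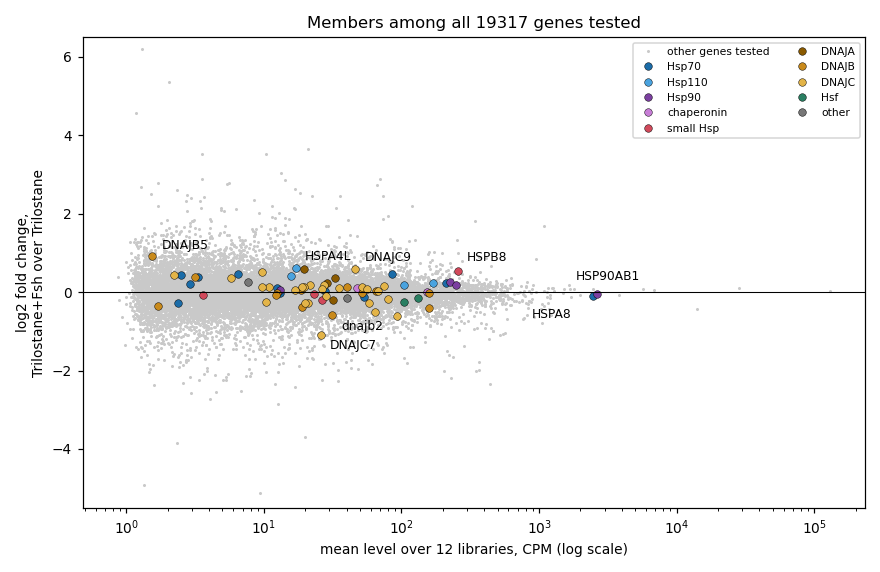
Mean level over the 12 libraries (CPM, log axis) against the log2 fold change of Trilostane+Fsh over Trilostane for all 19317 genes tested (grey) and the 73 tested members (coloured by family). All members lie between -1.10 and 0.92 on the log2 scale, and HSPB8 is the called one.

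In all 6 Fsh libraries HSPB8 was above every control library. It ranged from 262.9 to 354 CPM around a median of 305 CPM with Fsh, and from 188 to 232 CPM around a median of 203 CPM in controls. The means were 306 ± 36.7 CPM with Fsh and 209 ± 18.3 CPM in controls (SD, n = 6 each), a log2 fold change of 0.55 ± 0.10 SE with an adjusted p of 0.0186 (edgeR) and a 95% interval of 1.26-fold to 1.70-fold. Fsh library 5 was the highest and Fsh library 6 the lowest of the Fsh group. The adjusted p rose past the threshold without Fsh library 2 (0.0511) or control library 5 (0.0558), with the fold change almost as large (log2 0.54 and 0.53). Sums of Sertoli and Leydig cell markers were higher with Fsh too. Summed Sertoli cell markers (10 genes, 3 of them called higher) were 565 to 892 CPM with Fsh and 313 to 538 CPM in controls. Of these genes, 7 were above 0 and 3 below (FSHR, WT1 and SOX9 (ENSDARG00000043923)). Summed Leydig cell markers (7 genes, 2 called higher) were 307 to 708 CPM with Fsh and 80.9 to 299 CPM in controls, with 6 above 0 and 1 below (lhcgr). The endothelial and smooth muscle lists (4 and 5 genes tested) held 0 calls in edgeR, with median log2 fold changes of 0.07 and -0.06. Of all genes tested, 0.865% were called higher. Fsh library 5, the highest for HSPB8, had the lowest Leydig sum of its group (307 CPM) and a Sertoli sum of 639 CPM. Fsh library 6, the lowest for HSPB8, had the highest Leydig sum (708 CPM) and a Sertoli sum of 788 CPM. The lowest Sertoli sum was in Fsh library 1 (565 CPM), which had 269 CPM of HSPB8. Control library 6 was the highest control for HSPB8 (232 CPM) and for both sums (538 and 299 CPM). The part of Sertoli and Leydig cells in the HSPB8 result was not tested. HSPB8 is also known from muscle. The skeletal muscle list (23 genes, 10 tested) summed to 411 to 520 CPM with Fsh and 591 to 1110 CPM in controls, most of it from the TTN genes. Its 1 call, TTN (ENSDARG00000028213), was lower with Fsh (log2 -1.0 ± 0.18, adjusted p = 0.0154), where 0.766% of all genes tested were called lower. Of the 10, 5 were above 0 and 5 below, with a median log2 fold change of -0.07, and the highest estimate was of ACTA1 (ENSDARG00000055618), a skeletal actin, at 0.71 ± 0.32 (adjusted p = 0.267). The muscle creatine kinase gene ckma was at most 0.725 CPM in any Fsh library and at most 0.510 CPM in any control. The partner gene BAG3 averaged 15.1 ± 2.02 CPM with Fsh and 11.4 ± 2.24 CPM in controls and did not pass (log2 0.41 ± 0.15, adjusted p = 0.168).

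**Figure D2:**
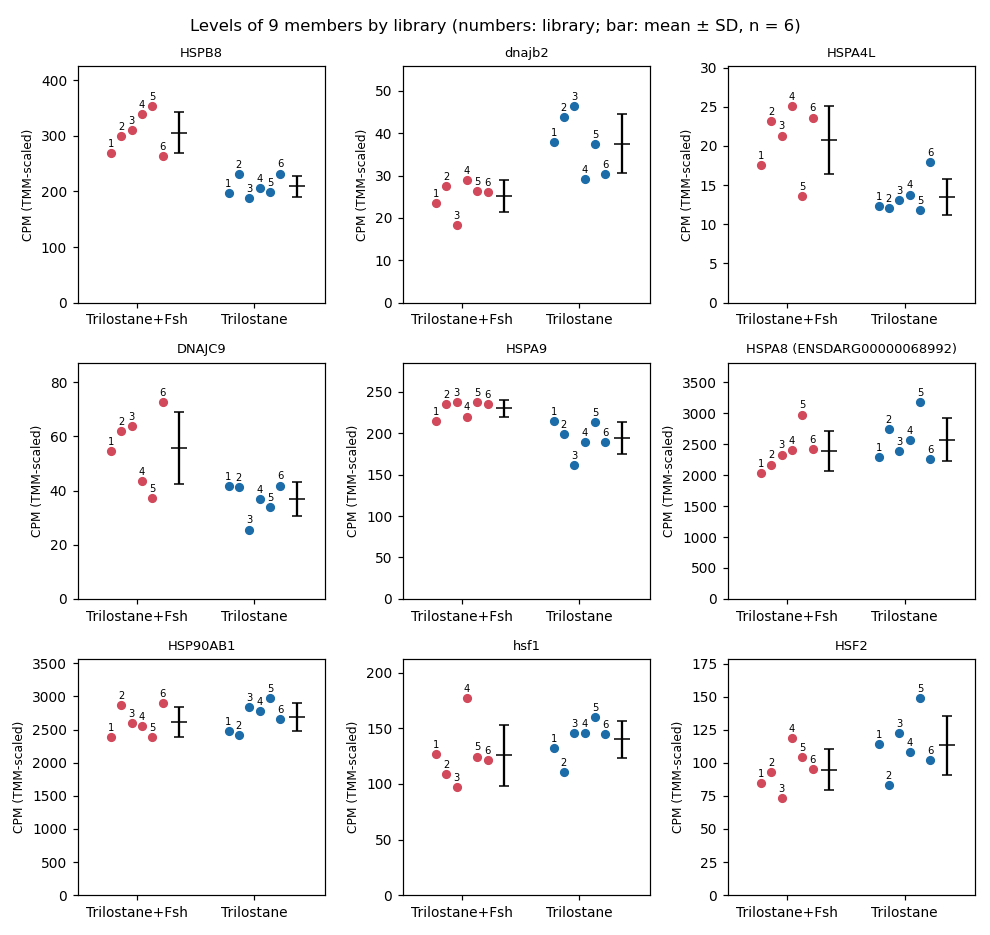
Levels of 9 members in each library (TMM-scaled CPM, linear axes from 0), with Trilostane+Fsh in red on the left and Trilostane in blue on the right of each panel; numbers are library numbers and bars are mean ± SD (n = 6). The 6 Fsh libraries lie above all controls for HSPB8 (262.9 CPM or more, against 232 CPM or less) and below all controls for dnajb2.

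The other small heat shock proteins gave no call. HSPB1, the Hsp27 of vertebrates that binds actin and unfolded proteins, was the most variable of them: it ranged from 5.62 to 50.5 CPM (median 15.1 CPM) with Fsh and from 4.47 to 41.6 CPM (median 25.8 CPM) in controls. Its high libraries (Fsh libraries 1 and 5, control library 6) and its low ones (Fsh library 4, control library 1) stood in both groups, and the 95% interval of its fold change, 0.44 to 2.10, leaves room for a change of 2-fold either way (adjusted p = 0.968). The genes hspb11 and hspb6 averaged 24.6 ± 5.83 and 3.53 ± 0.508 CPM with Fsh, against 28.1 ± 4.69 and 3.70 ± 1.49 CPM in controls, with adjusted p values of 0.586 and 0.917. HSPB2, HSPB3, hspb9, hspb9l and hspb15 had too few reads to be tested. Of these, hspb9l had 95 reads over the Fsh libraries and 121 over the controls, and most came from 1 library of each group: 7.95 CPM in Fsh library 5 against at most 0.701 CPM in the other Fsh libraries, and 9.24 CPM in control library 2 against at most 0.892 CPM in the other controls. Its paralog hspb9 also peaked in these 2 libraries, at 0.795 CPM and 1.05 CPM. The same libraries held the highest sums of endothelial markers (278 and 188 CPM), of smooth muscle markers (430.0 and 358 CPM) and of leukocyte markers (1517 and 1967 CPM) in their groups. They also held the highest levels of the leukocyte lysozyme gene lyz (31.0 and 9.76 CPM). But control library 5 had 7.96 CPM of lyz and 0.514 CPM of hspb9l. Which cells carry the hspb9l reads was not tested.

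Of 12 Hsp70 genes tested, none passed in edgeR, DESeq2 or limma-voom. An unadjusted p under 0.05 was found for 1 (8.33%), beside 17.4% of all genes tested. Of the 12, 8 were above 0 and the median log2 fold change was 0.16. The constitutive cytosolic Hsp70 gene HSPA8 (ENSDARG00000068992) and the cytosolic Hsp90 gene HSP90AB1 carried most of the reads of the whole group: together they made up 0.453% to 0.556% of all counts in the Fsh libraries and 0.466% to 0.603% in controls, or 56.5% to 58.7% and 57.6% to 62.1% of the members' reads. HSPA8 (ENSDARG00000068992) ranged from 2038 to 2979 CPM (median 2369 CPM) with Fsh and from 2263 to 3182 CPM (median 2476 CPM) in controls. The groups overlapped over most of their range, with library 5 the highest in each, and the fold change was 0.93 with a 95% interval of 0.773 to 1.12 (adjusted p = 0.713). The other copy under that symbol, HSPA8 (ENSDARG00000037403), ranged from 52.3 to 126 CPM (median 104 CPM) with Fsh and from 47.6 to 112 CPM (median 71.2 CPM) in controls, with Fsh library 5 alone below the control mean (log2 0.46 ± 0.22, adjusted p = 0.302). HSPA9, the mitochondrial Hsp70 that pulls imported proteins into the matrix, was one of 3 members whose groups did not overlap (HSPA9 and HSPB8 higher, dnajb2 lower), beside 1.93% of all genes tested (1.11% higher and 0.818% lower with Fsh). HSPA9 lay between 214.4 and 238 CPM with Fsh and between 161 and 214.2 CPM in controls, so the gap was narrow. The gap was lost with RLE scaling in edgeR. It was also lost in 9 of the 12 comparisons of levels that left out 1 library, where the scaling was recomputed (without Fsh library 2, 4 or 6 and without each control). HSPB8 and dnajb2 kept theirs in all 12. The log2 fold change of HSPA9 was 0.24 ± 0.09 (1.18-fold, adjusted p = 0.163).

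The genes hsp70.1, hsp70.3, hsp70l and hspa1b were taken by symbol as the stress-inducible Hsp70 genes. Whether their levels follow heat shock or handling stress in these libraries was not tested. The sequences of these genes were not compared, and the treatment of multi-mapped reads is not given, so the division of reads between them is uncertain. The reads of hsp70.1, hsp70.3, hsp70l and hspa1b together came to 15.6 to 31.9 CPM (median 21.4 CPM) with Fsh and 10.4 to 33.9 CPM (median 19.9 CPM) in controls. Alone, hsp70l ranged from 8.60 to 19.7 CPM with Fsh and from 5.0 to 21.8 CPM in controls, for a fold change of 0.979 with a 95% interval of 0.593 to 1.62 (adjusted p = 0.975). Its sign turned with library size alone as the scaling, in limma-voom and with the replicate number as a block. It also turned in 5 of the 12 fits that left out 1 library. For each of hsp70l, hsp70.1 and hsp70.3, Fsh library 2 was the highest of its group, control libraries 2 and 3 were the highest controls and control library 6 was the lowest control. The copy hspa1b did not share this pattern. Its highest Fsh library was Fsh library 6 (4.805 CPM, against 2.90 CPM in Fsh library 2). Control libraries 3 and 2 were its lowest controls (2.17 and 2.27 CPM), and control library 6 stood at 3.34 CPM. hsp70.1 averaged 2.17 ± 1.28 CPM with Fsh and 2.59 ± 1.16 CPM in controls (adjusted p = 0.768), and hsp70.3 averaged 3.83 ± 1.0 CPM with Fsh and 2.86 ± 1.8 CPM in controls (adjusted p = 0.616). HSPA12B, a distant Hsp70 relative of endothelial cells in mammals, fell into high and low libraries in both groups. It stood at 13.2 CPM in both Fsh libraries 2 and 6 and at 4.57 to 5.02 CPM in the other Fsh libraries, and at 11.0 and 11.5 CPM in control libraries 2 and 3 against 1.67 to 3.62 CPM in the other controls (adjusted p = 0.686). Summed endothelial markers were 127 and 83.2 CPM in Fsh libraries 2 and 6, against 97.0 to 278 CPM in the other Fsh libraries, and 188 and 138 CPM in control libraries 2 and 3, against 92.2 to 149 CPM in the other controls; their part in the HSPA12B levels was not tested. The remaining genes HSPA13 (an Hsp70 of the endoplasmic reticulum), HSPA14 (a ribosome-associated Hsp70) and HSPA12A had adjusted p values of 0.948, 0.628 and 0.753. HSPA5, the main Hsp70 of the endoplasmic reticulum, was not analysed, because no counted gene ID carried its symbol. The same holds for hsp70.2 and dnajb1a.

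The 4 Hsp110 genes, whose products exchange the nucleotide of Hsp70, were all above 0 (median log2 fold change 0.33). An unadjusted p under 0.05 was found for 3 of them, beside 17.4% of all genes tested. But none passed in edgeR or limma-voom, and 1 (HSPA4L) did in DESeq2, where it called 5.49% of all genes. HSPA4L, which mice need for normal sperm and fertility, ranged from 13.6 to 25.1 CPM (median 22.3 CPM) with Fsh and from 11.8 to 18.0 CPM (median 12.7 CPM) in controls. All 6 Fsh libraries were above the control mean, with Fsh library 5 the lowest, and control libraries 4 and 6 reached into the Fsh range. The fold change was 1.53 with a 95% interval of 1.2 to 1.95 (log2 0.61 ± 0.16, adjusted p = 0.0746). It passed without Fsh library 5 (log2 0.71 ± 0.14, adjusted p = 0.0210), without control library 6 (adjusted p = 0.0318) and in DESeq2 (adjusted p = 0.0184). In the other edgeR fits that left out 1 library it did not pass (adjusted p up to 0.168). HSPH1, the Hsp105 of stressed cells, averaged 18.0 ± 1.32 CPM with Fsh and 13.4 ± 2.58 CPM in controls (log2 0.42 ± 0.13, adjusted p = 0.122). The copies of HSPA4 had smaller estimates. HSPA4 (ENSDARG00000004754) averaged 183 ± 19.6 CPM with Fsh and 156 ± 22.6 CPM in controls (adjusted p = 0.295), and HSPA4 (ENSDARG00000018989) averaged 112 ± 9.17 CPM with Fsh and 98 ± 9.36 CPM in controls (adjusted p = 0.287). Summed over the 4 genes, the Fsh libraries held 302 to 364 CPM and the controls 244 to 314 CPM, with Fsh libraries 1 and 5 inside the control range.

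None of the 4 Hsp90 genes passed in edgeR, DESeq2 or limma-voom, and 0 had an unadjusted p under 0.05. HSP90AB1, the constitutive cytosolic form, ranged from 2382 to 2904 CPM (median 2575 CPM) with Fsh and from 2414 to 2972 CPM (median 2718 CPM) in controls. The groups overlapped almost fully and the fold change of 0.972 had a 95% interval of 0.836 to 1.13 (adjusted p = 0.879). HSP90AA1, the alpha form that mouse spermatocytes need to pass meiosis, ranged from 148 to 319 CPM (median 250.1 CPM) with Fsh and from 179.9 to 226 CPM (median 206 CPM) in controls (log2 0.26 ± 0.16, adjusted p = 0.439). Fsh library 5 was below every control and Fsh libraries 2, 3, 4 and 6 above every control, so the spread was 64.0 CPM (SD) with Fsh and 19.7 CPM in controls. The gene hsp90aa1.1, which in zebrafish embryos serves myosin folding in skeletal muscle, averaged 13.5 ± 2.53 CPM with Fsh and 12.9 ± 2.52 CPM in controls (adjusted p = 0.879). HSP90B1, the Hsp90 of the endoplasmic reticulum, ranged from 218 to 389.7 CPM (median 244 CPM) with Fsh and from 195 to 309 CPM (median 220.3 CPM) in controls, with Fsh library 5 far above the rest of its group (adjusted p = 0.574). The mitochondrial chaperonin HSPD1 (Hsp60) and its lid HSPE1 (Hsp10) also gave no call. None of the 3 tools called either. HSPD1 averaged 153.3 ± 21.8 CPM with Fsh and 153.5 ± 12.6 CPM in controls (95% interval 0.855 to 1.17), and HSPE1 averaged 49.2 ± 6.79 CPM with Fsh and 45.7 ± 7.25 CPM in controls (1.08-fold, 95% interval 0.894 to 1.30).

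**Figure D3:**
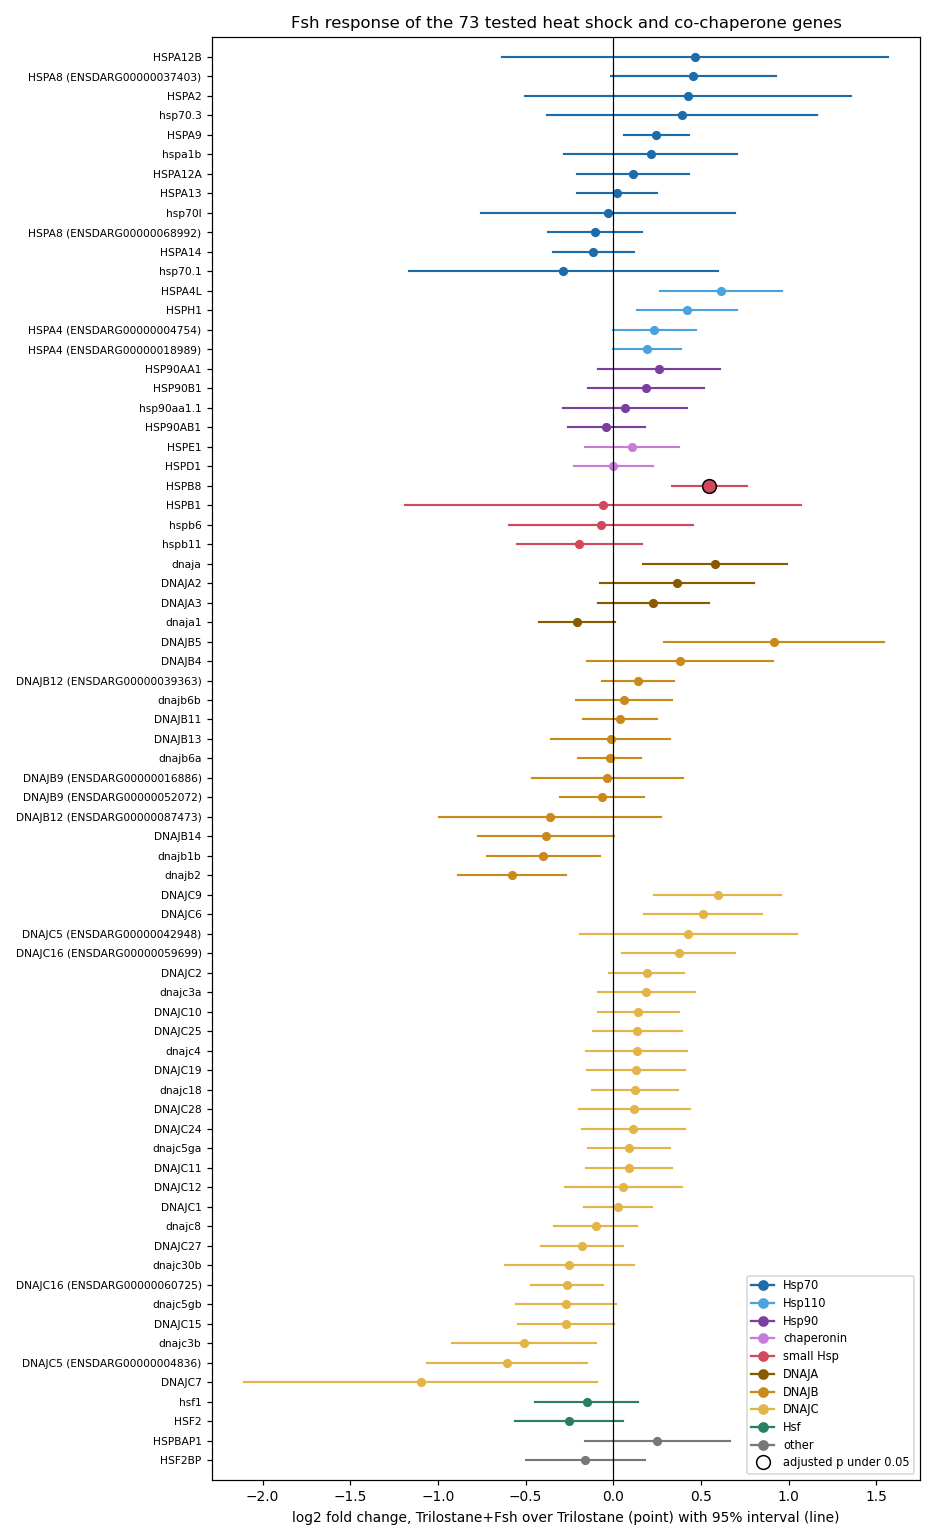
Log2 fold change of Trilostane+Fsh over Trilostane (points) with 95% intervals (lines) for the 73 tested members, grouped and coloured by family. The large outlined point is HSPB8 at 0.55; intervals are widest for HSPB1, HSPA12B and DNAJC7, and all 4 Hsp110 points lie above 0.

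None of 43 J protein genes tested passed in edgeR or limma-voom, and 2 did in DESeq2 (dnajb2 and DNAJC9), where DESeq2 called 5.49% of all genes. At an unadjusted p under 0.05 stood 11 (25.6%), beside 17.4% of all genes tested. Of the 43, 25 were above 0 and 18 below, with a median log2 fold change of 0.06. Among the cytosolic DNAJA and DNAJB proteins, dnajb2, which in mammals delivers ubiquitinated clients to the proteasome, came nearest. It ranged from 18.4 to 28.9 CPM (median 26.2 CPM) with Fsh and from 29.1 to 46.5 CPM (median 37.6 CPM) in controls. All Fsh libraries were below all controls, by the margin between Fsh library 4 and control library 4 (28.9 and 29.1 CPM). The fold change was 0.67 with a 95% interval of 0.542 to 0.828 (log2 -0.58 ± 0.14, adjusted p = 0.0594), and it passed without control library 6 (adjusted p = 0.0283) and in DESeq2 (adjusted p = 0.00620). In the other edgeR fits that left out 1 library dnajb2 did not pass (adjusted p up to 0.118). The inducible Hsp40 gene dnajb1b, a target of heat shock factor 1, averaged 137 ± 19.3 CPM with Fsh and 181 ± 42.7 CPM in controls, and all 6 Fsh libraries were below the control mean (log2 -0.40 ± 0.15, adjusted p = 0.190). DNAJB5 had the largest positive estimate of the group, at 2.02 ± 0.754 CPM with Fsh and 1.08 ± 0.290 CPM in controls, on 113 reads over the Fsh libraries and 51 over the controls (1.89-fold, 95% interval 1.22 to 2.92, adjusted p = 0.125). The gene listed as dnaja averaged 23.5 ± 6.64 CPM with Fsh and 15.7 ± 2.3 CPM in controls, with Fsh library 5 at 13.1 CPM and the other Fsh libraries at 18.0 to 30.6 CPM. It did not pass with all libraries (log2 0.58 ± 0.19, adjusted p = 0.134) and passed without Fsh library 5 (log2 0.70 ± 0.15, adjusted p = 0.0268). No other omission of 1 library brought dnaja under the threshold in edgeR (adjusted p up to 0.281). The general type A proteins dnaja1 and DNAJA2 averaged 29.8 ± 3.82 and 37.0 ± 12.6 CPM with Fsh, against 34.4 ± 2.50 and 28.7 ± 4.31 CPM in controls (adjusted p = 0.308 and 0.384).

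DNAJB13, a protein of the sperm flagellum and not a soluble co-chaperone, ranged from 128 to 206 CPM (median 153 CPM) with Fsh and from 119.8 to 208 CPM (median 159 CPM) in controls. The groups covered the same range, and the fold change of 0.990 had a 95% interval of 0.782 to 1.25 (adjusted p = 0.975). The remaining DNAJB genes gave adjusted p values from 0.293 (DNAJB14) to 0.95 (DNAJB9 (ENSDARG00000016886)). The aggregation suppressors dnajb6a and dnajb6b had fold changes of 0.985 and 1.04.

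Of 26 DNAJC genes tested, which share little beyond the J domain, 17 were above 0 and 9 below. DNAJC9, a histone chaperone in human cells that supplies histones during replication, ranged from 37.3 to 72.7 CPM (median 58.3 CPM) with Fsh and from 25.6 to 41.8 CPM (median 39.2 CPM) in controls. Fsh library 5 was the only Fsh library inside the control range, and the fold change was 1.51 with a 95% interval of 1.17 to 1.94 (log2 0.59 ± 0.17, adjusted p = 0.0926). Without Fsh library 5 it passed (log2 0.69 ± 0.15, adjusted p = 0.0309), as it did in DESeq2 (adjusted p = 0.0278). In the other edgeR fits that left out 1 library DNAJC9 did not pass (adjusted p up to 0.198). DNAJC5 (ENSDARG00000004836), the cysteine string protein of secretory vesicles, had a level of 124.5 CPM in Fsh library 5 and of 55.4 to 76.4 CPM in the others of the Fsh group; the controls ranged from 74.5 to 148.5 CPM (median 112 CPM). It did not pass with all libraries (log2 -0.61 ± 0.21, adjusted p = 0.158) and passed without Fsh library 5 (log2 -0.82 ± 0.16, adjusted p = 0.0221). No other omission of 1 library brought it under the threshold in edgeR (adjusted p up to 0.295). The gene dnajc3b, of a co-chaperone of the endoplasmic reticulum, went the same way: 80.7 CPM in Fsh library 5, 38.1 to 63.7 CPM in the others and 55.2 to 96.5 CPM in controls, with an adjusted p of 0.188 with all libraries and 0.0459 without Fsh library 5. It was not called with any other library left out. Both genes were lowest in Fsh libraries 2, 3 and 6, the 3 with the lowest leukocyte marker sums (491 to 778 CPM, against 1187 to 1517 CPM in the other Fsh libraries and 1225 to 1967 CPM in controls). But DNAJC5 (ENSDARG00000004836) was almost level in Fsh libraries 2 and 4 (63.64 and 63.75 CPM), whose leukocyte sums were 600.5 and 1187 CPM. Most of the sum came from cd74a and cd74b, which were lowest in Fsh library 6. The markers ptprc and CORO1A were lowest in Fsh library 4 (14.1 and 30.1 CPM). Of 13 leukocyte markers tested 1 was called, lower with Fsh, where 0.766% of all genes tested were called lower. Of the 13, 2 were above 0 and 11 below, with a median log2 fold change of -0.43. An edgeR unadjusted p under 0.05 was found for 5 (38.5%), all lower with Fsh, beside 17.4% of all genes tested in either direction. The part of leukocytes in the levels of DNAJC5 (ENSDARG00000004836) and dnajc3b was not tested.

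DNAJC7, which binds both Hsp70 and Hsp90, had the largest negative estimate of the members and a wide spread. It stood at 4.93 and 5.31 CPM in Fsh libraries 2 and 6 and at 13.5 to 31.1 CPM in the other Fsh libraries, against 16.9 to 63.8 CPM (median 30.9 CPM) in controls, with the highest values in control libraries 2 and 6. The fold change was 0.468 with a 95% interval of 0.233 to 0.939 (log2 -1.10 ± 0.47, adjusted p = 0.247). DNAJC6, the auxilin that helps Hsc70 strip clathrin from vesicles, averaged 11.4 ± 1.84 CPM with Fsh and 7.97 ± 1.48 CPM in controls (adjusted p = 0.114). The copies of DNAJC16 had estimates of unlike sign, DNAJC16 (ENSDARG00000059699) at 0.37 ± 0.15 and DNAJC16 (ENSDARG00000060725) at -0.27 ± 0.10 on the log2 scale (adjusted p = 0.217 and 0.173). The ribosome-bound partner of HSPA14, DNAJC2, averaged 29.3 ± 2.04 CPM with Fsh and 25.7 ± 2.82 CPM in controls (adjusted p = 0.345). DNAJC22 and DNAJC5B had too few reads to be tested.

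By compartment, the 8 tested members of the endoplasmic reticulum lumen (HSP90B1, HSPA13, DNAJB11, both DNAJB9 copies, dnajc3a, dnajc3b and DNAJC10) had a median log2 fold change of 0.03. Among the co-chaperones of the unfolded protein response, dnajc3b had the lowest estimate (fold change 0.703, 95% interval 0.529 to 0.935, adjusted p = 0.188, and 0.0459 without Fsh library 5). DNAJB11 averaged 66.6 ± 7.40 CPM with Fsh and 64.8 ± 6.65 CPM in controls, DNAJB9 (ENSDARG00000052072) 11.9 ± 1.03 CPM with Fsh and 12.4 ± 1.21 CPM in controls, and dnajc3a 23.0 ± 3.30 CPM with Fsh and 20.2 ± 3.01 CPM in controls. The 9 mitochondrial members (HSPA9, HSPD1, HSPE1, DNAJA3, DNAJC11, DNAJC15, DNAJC19, DNAJC28 and dnajc30b) had a median of 0.11. Neither compartment held a call in edgeR or DESeq2; DESeq2's 4 calls are named above.

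The heat shock factors were below 0 in their estimates and did not pass in edgeR, DESeq2 or limma-voom, nor did either have an unadjusted p under 0.05. The gene hsf1, of the main switch of the heat shock response, ranged from 96.8 to 177 CPM (median 123 CPM) with Fsh and from 111 to 160.1 CPM (median 145 CPM) in controls. Fsh library 4 was the highest of all 12 libraries while the other 5 lay below the control mean, and the fold change of 0.9 had a 95% interval of 0.734 to 1.1 (adjusted p = 0.610). HSF2, which in mice acts in spermatocytes and spermatids, ranged from 73.2 to 118 CPM (median 94.3 CPM) with Fsh and from 83.0 to 149 CPM (median 111 CPM) in controls (fold change 0.839, 95% interval 0.679 to 1.04, adjusted p = 0.387). HSF4, the factor of the lens, had 18 reads over the Fsh libraries and 21 over the controls and was not tested. HSF2BP, which binds HSF2 and in mice takes part in meiotic recombination, averaged 38.0 ± 5.59 CPM with Fsh and 42.6 ± 9.79 CPM in controls (adjusted p = 0.647). HSPBAP1, which binds HSPB1 in mammals, averaged 8.39 ± 1.94 CPM with Fsh and 7.06 ± 1.57 CPM in controls (adjusted p = 0.539).

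HSPA4L, HSP90AA1, DNAJB13, HSF2 and HSF2BP, described above with roles in germ cells or sperm, were read in every library, as were all 73 tested members. None of these genes passed in edgeR. They are not a full list of germ cell forms, and members with few reads were not tested, such as hspb9 (10 reads with Fsh and 16 in controls). The gene listed as HSPA2 shares its name with the Hsp70 of mouse spermatocytes. Whether it is the counterpart of that gene was not tested. It was read at 1.46 to 4.64 CPM (median 2.75 CPM) with Fsh and 0.238 to 3.31 CPM (median 2.51 CPM) in controls. Its adjusted p was 0.657. Fsh library 2 was its highest Fsh library and control library 6 its lowest control, as for hsp70l, hsp70.1 and hsp70.3. Germ cell marker lists held no call in edgeR: 7 spermatogonial, 9 meiotic and 9 spermatid and sperm genes were tested, with median log2 fold changes of 0.08, 0.12 and -0.00. Each list had 1 gene with an unadjusted p under 0.05 and 1 called by DESeq2, beside 17.4% and 5.49% of all genes tested. Fsh library 5 was the lowest of its group for 21 of the 73 members (beside 27% of all genes tested) and the highest for 20 (beside 26.3%), so members were at its extremes about as often as other genes. HSPA4L, dnaja, HSP90AA1, DNAJC9 and HSPA8 (ENSDARG00000037403), chosen here after their values were seen, were among those lowest in it, where the spermatogonial (1444 CPM), meiotic (1849 CPM) and spermatid (1103 CPM) marker sums were also the lowest of the group. Single markers differed. DNAH2, the largest part of the spermatid sum, was lowest in Fsh library 5 (486 CPM). But SPATA4 (152 CPM) and TEKT4 (112 CPM) were there above their Fsh medians (125 and 99.0 CPM). PIWIL1, the largest part of the spermatogonial sum, was lowest there (866 CPM), while KIT was highest (81.4 CPM). HSP90B1, dnajc3b, DNAJC5 (ENSDARG00000004836), HSPB8 and HSPA8 (ENSDARG00000068992) were among those highest in that library, where the endothelial, smooth muscle (430.0 CPM) and leukocyte (1517 CPM) sums were the highest. The part of cell makeup in these levels was not tested.

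**Figure D4:**
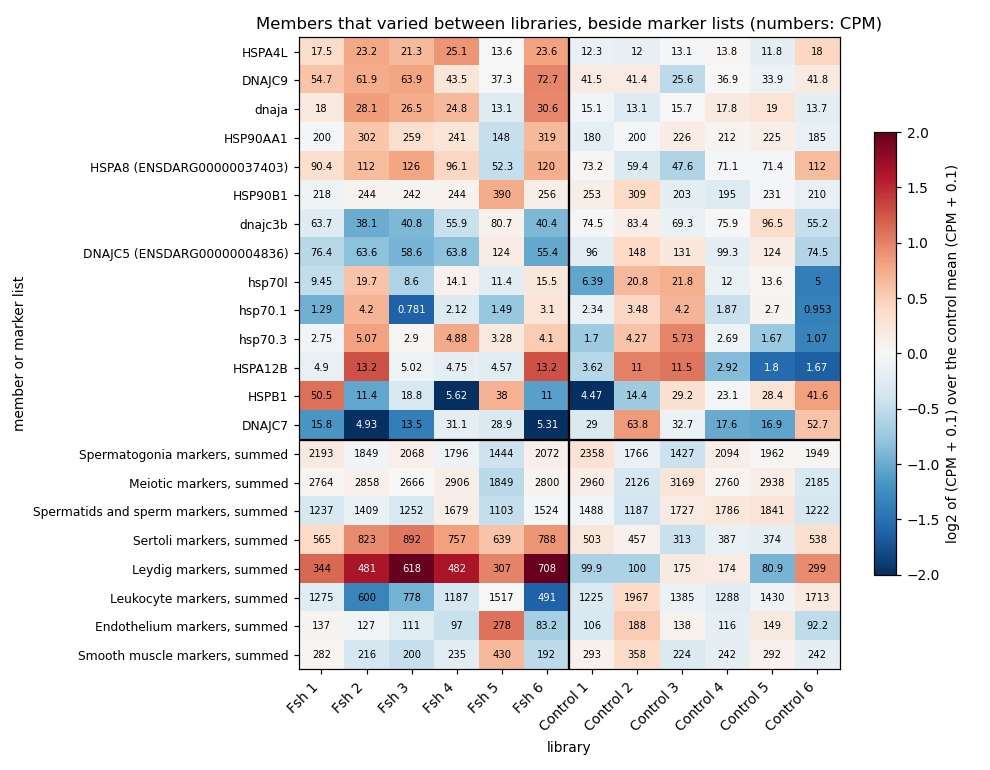
Levels of 14 members and 8 summed marker lists in each library (numbers, CPM), coloured by log2 of (CPM + 0.1) over the control mean, with Fsh libraries 1 to 6 left of control libraries 1 to 6. In Fsh library 5, HSPA4L (13.6 CPM), dnaja (13.1 CPM) and HSP90AA1 (148 CPM) are the lowest and HSP90B1 (389.7 CPM) the highest of the Fsh group.

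Other chaperone genes, outside the symbols followed here, were read from the same test. Beside them, edgeR called 1.63% and DESeq2 5.49% of all genes tested, and 17.4% had an unadjusted p under 0.05. Of 32 other Hsp70 and Hsp90 co-chaperones tested, 1 fell and none rose (median log2 fold change -0.02). The fall was of PTGES3 (ENSDARG00000089626), a copy of the Hsp90 co-chaperone p23, which had 4 reads over the Fsh libraries and 121 over the controls (adjusted p = 3.23e-05). It was at most 0.125 CPM in any Fsh library and at least 2.00 CPM in every control, and the other copy, PTGES3 (ENSDARG00000037284), averaged 67.5 ± 11.6 CPM with Fsh and 68.6 ± 9.33 CPM in controls. STIP1, which links Hsp70 to Hsp90, averaged 103 ± 5.24 CPM with Fsh and 113 ± 9.32 CPM in controls and did not pass. None of 18 genes of the TRiC chaperonin and prefoldin passed in edgeR or DESeq2, and 1 had an unadjusted p under 0.05 (median 0.05, with PFDN6 the smallest p at log2 0.28 ± 0.10). None of 31 genes of endoplasmic reticulum folding and the unfolded protein response passed in edgeR, 1 did in DESeq2, and 5 had an unadjusted p under 0.05 (median 0.03). There the collagen chaperone SERPINH1 (ENSDARG00000019949) had the smallest p, at 24.8 ± 8.43 CPM with Fsh and 13.9 ± 4.84 CPM in controls (log2 0.83 ± 0.25, adjusted p = 0.109). None of 10 mitochondrial protease and quality control genes passed in edgeR, 1 did in DESeq2, and 1 had an unadjusted p under 0.05 (median 0.10, with AFG3L2 the smallest p at 0.33 ± 0.09). A last list held 11 tested genes, put together as possible partners or targets of heat shock factors. Whether these factors act on them was not tested. None passed in edgeR, 1 did in DESeq2, and 2 had an unadjusted p under 0.05 (median -0.05). The 2 were GADD45B (ENSDARG00000027744) and SERPINH1 (ENSDARG00000019949). Both SERPINH1 copies are also counted in the endoplasmic reticulum list.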

How the data were processed

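RNA was sequenced from 12 libraries of adult zebrafish testis tissue. The submitters' processing notes name CASAVA 1.8, STAR 2.3, HTSeq and genome build Zv9. The annotation release, the counting by strand and the treatment of multi-mapped reads are not given in those notes, so antisense, overlapping and near-identical genes are uncertain. The authors deposited raw counts, in whole numbers, for each Ensembl gene ID. Symbols from a table named 21939 of 33737 IDs, and IDs are printed where 2 share a symbol. Positions, lengths and sequences were not used here.

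Counts were tested in R 4.3.3 with edgeR 4.0.16 (glmQLFit, glmQLFTest) and TMM scaling (factors 0.891 to 1.05), on 19317 genes kept by filterByExpr, with no covariates and Benjamini-Hochberg adjustment over all of them. Calls are at an adjusted p under 0.05. Every adjusted p is from edgeR unless another tool is named. The standard error is the log2 fold change divided by the square root of F, and 95% intervals use the t distribution. The pipeline was tested on simulated counts. Library measures were compared with an exact permutation test over 924 arrangements (scipy 1.17.1). The limit behind a count of 0 is 3 counts, or 0.261 to 0.639 CPM by library, and covers counting error only.

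Replicate libraries differed by more than sampling noise (chi-square per degree of freedom 5.43 to 43.0). Named members followed a rule: those called; in each family the highest, the smallest p and the most variable; and a fixed set, which gave 38. Other members were named after their values were seen. The members and lists were chosen with earlier results of these data known. Alternatives were DESeq2 1.42.0, limma-voom (limma 3.58.1), other scalings and filters, a robust fit, the replicate number as a block and the omission of each library.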

Additional observations from a re-analysis of the deposited data

Results flagged for a closer look

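In 10 of 148 groups of 6 libraries a single library lay far from the others, with a gap to the nearest one past Dixon's 95% critical value; chance flags about 1 in 20 groups. Of these, 5 were Fsh library 5. DNAJC5 (ENSDARG00000004836) stood there at 124.5 CPM, against 55.4 to 76.4 CPM in the other Fsh libraries, and HSP90B1 at 389.7 CPM, against 218 to 256 CPM. In the same library the endoplasmic reticulum folding list summed to 2588 CPM, against 1956 to 2114 CPM, the meiotic markers to 1849 CPM, against 2666 to 2906 CPM, and the endothelial markers to 278 CPM, against 83.2 to 137 CPM. In control library 6, HSPA4L was at 18.0 CPM, against 11.8 to 13.8 CPM in the other controls, and HSF4 at 1.79 CPM, against at most 0.261 CPM. The mitochondrial quality control list summed to 314 CPM in Fsh library 2, against 339 to 342 CPM in the other Fsh libraries. Summed liver markers were 1586 CPM in Fsh library 6, against 121 to 432 CPM in the other Fsh libraries, and 2843 CPM in control library 3, against 138 to 693 CPM in the other controls.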

How the results depend on the processing

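The direction and call of HSPB8 were the same in limma-voom, under both other scalings, both other filters and the robust fit. With the replicate number as a block no member was called (0, with HSPB8 at 0.54 on the log2 scale and adjusted p = 0.0516; 381 genes were called in all). The labels do not tie a replicate number to a fish, culture or day, so it is not known whether the block applies: correlations of their deviations from the group means ran from -0.003 to 0.272 across genes, and 2 of 6 Fsh libraries correlated best with the control of their own number. DESeq2 called 4 members and 1061 genes, against 1 and 315 in edgeR; the cause was not tested. Leaving out 1 library at a time gave 0 to 6 members called (0 without Fsh library 2 or control library 5, 6 without Fsh library 5, 3 without control library 6), 95 to 758 genes called, and 2 to 4 members whose groups did not overlap. The median log2 fold change of the members stayed between 0.05 and 0.11 in all alternatives. Signs turned for 7 of 37 named members, none of them called. hsp70l was at 0.030 in limma-voom, at 0.027 with library size only and at 0.10 with the block. DNAJB13 was at 0.024 with library size only. HSPD1 was at 0.030 with library size only, 0.013 with no filter and 0.0098 with at least 1 CPM in 6 libraries. Without single libraries the ranges were -0.22 to 0.16 (hsp70l), -0.11 to 0.061 (DNAJB13), -0.057 to 0.058 (HSPD1), -0.47 to 0.16 (HSPB1), -0.015 to 0.079 (DNAJB11), -0.14 to 0.11 (DNAJB9 (ENSDARG00000016886)) and -0.024 to 0.13 (hsp90aa1.1). Depth limits the low genes: 10 members were not tested.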
